A study of Mus musculus with 16 samples.

Results

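The MHC class II and antigen processing genes are 10 of the 18194 genes measured on these arrays: H2-Aa, H2-Ab1, H2-Eb1, H2-DMa, Cd74, B2m, Tap1, Tap2, Psmb8 and Psmb9. They were chosen by name, and each was read from the brightest of its probe sets, the groups of short DNA probes that each report 1 transcript. The 10 genes have 21 probe sets in all among the 45101 on the array. All values are log2 of the deposited intensity, so a difference of 1 is a doubling.

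The samples are gastrocnemius (calf) muscle of male mice aged 2 months, with 2 arrays in each of 6 groups. The wild-type mice were C57BL/6J, the mdx mice C57BL/10J, and the Galgt2 transgenic mice C57BL/6J. The Galgt2 transgenic mdx mice were a C57BL/10J x C57BL/6J cross. The mdx mouse lacks dystrophin, the membrane-linked protein lost in Duchenne muscular dystrophy, and serves as its model. Galgt2 (B4galnt2) encodes a glycosyltransferase that adds N-acetylgalactosamine to cell surface glycans. In a separately run array set, mdx muscle of C57BL/10J mice received an adeno-associated virus (AAV) carrying Galgt2, and the opposite leg received phosphate-buffered saline (PBS). All mice of both AAV-set groups therefore lacked dystrophin, and the PBS muscle was no untreated animal but the other leg of a virus-treated one. The labels give neither the promoters that drive Galgt2 nor whether replicates were separate mice, and do not tie the legs of 1 animal to each other. P-values then measure only the spread between these samples, which may be technical. Strain and genotype cannot be told apart between mdx and wild type, nor in any comparison of transgenic mdx muscle with another group, since that group alone was a cross.

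Class II molecules display peptides from engulfed material to helper T cells, and are made mainly by macrophages, dendritic cells and B cells. H2-Aa and H2-Ab1 encode the 2 chains of I-A and H2-Eb1 the beta chain of I-E, while Cd74 (the invariant chain) guards the groove until H2-DM, of which H2-DMa is a subunit, helps load a peptide. Class I molecules display peptides from inside nearly every cell. B2m is their light chain, Tap1 and Tap2 form the transporter that brings peptides into the endoplasmic reticulum, and Psmb8 and Psmb9 are subunits that interferon gamma induces to form the immunoproteasome. Healthy muscle fibres are known for low MHC expression, which rises in inflamed muscle.

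Of the 10 genes, 8 lie on mouse chromosome 17 in the MHC, in the order H2-DMa, Psmb9, Tap1, Psmb8, Tap2, H2-Ab1, H2-Aa and H2-Eb1 (RefSeq, GRCm38.p6). B2m lies on chromosome 2, and Cd74 lies on another chromosome. The promoter sequences of 4 of them are shown because these genes sit in 3 parts of the pathway and because class II and class I promoters are known to share upstream elements. Each is the 250 bases before the RefSeq start of transcription in GRCm38.p6, read 5′ to 3′ along the gene. Capitals mark the Y box core CCAAT, or ATTGG when read on the other strand, the core of the interferon-stimulated response element, which is GAAA, any 2 bases and GAAA, and the core of cAMP response element-like sites, TGACG, or CGTCA when read on the other strand.
H2-Aa (chr17:34287824-34288073, minus strand): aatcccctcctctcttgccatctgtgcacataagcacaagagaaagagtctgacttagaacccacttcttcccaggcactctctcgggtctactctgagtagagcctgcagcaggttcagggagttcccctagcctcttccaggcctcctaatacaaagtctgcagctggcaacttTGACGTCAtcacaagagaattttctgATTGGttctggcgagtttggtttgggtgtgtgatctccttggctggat
H2-Eb1 (chr17:34305617-34305866, plus strand): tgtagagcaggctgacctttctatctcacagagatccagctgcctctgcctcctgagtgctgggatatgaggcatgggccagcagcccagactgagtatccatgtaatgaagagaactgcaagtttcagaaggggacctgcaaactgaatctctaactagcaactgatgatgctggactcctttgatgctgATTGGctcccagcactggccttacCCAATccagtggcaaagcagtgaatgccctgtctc
B2m (chr2:122147437-122147686, plus strand): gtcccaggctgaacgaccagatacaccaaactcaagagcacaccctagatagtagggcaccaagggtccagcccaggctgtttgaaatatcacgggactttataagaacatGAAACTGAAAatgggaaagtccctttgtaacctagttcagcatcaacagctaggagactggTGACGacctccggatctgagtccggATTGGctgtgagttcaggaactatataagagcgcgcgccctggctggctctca
Tap1 (chr17:34187306-34187555, plus strand): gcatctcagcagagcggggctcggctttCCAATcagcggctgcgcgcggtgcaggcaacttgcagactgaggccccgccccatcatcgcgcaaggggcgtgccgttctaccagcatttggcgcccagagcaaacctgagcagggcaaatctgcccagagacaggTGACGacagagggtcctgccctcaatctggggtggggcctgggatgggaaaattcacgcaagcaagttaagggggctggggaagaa

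The class II genes H2-Aa and H2-Eb1 and the class I light chain B2m carry a Y box core close to the start, beginning 48, 59 and 53 bases before it, each as ATTGG. H2-Eb1 has another, CCAAT, at 35 bases. In H2-Aa the letters TGACGTCA, a match to TGACG on both strands that overlap, begin 74 bases before the start, and in B2m TGACG begins at 78. B2m alone of the 7 genes with a promoter entry holds the interferon element core, GAAACTGAAA at 139 bases before the start. Tap1 and Psmb9 are transcribed away from each other, and their windows share 275 bases on opposite strands, so the CCAAT that begins 222 bases before the Tap1 start is the ATTGG beginning 8 bases before the Psmb9 start. Over windows from 250 bases before to 50 after the start, searched on both strands, CCAAT was found in 6 of 7 genes (37.4% of 32851 windows of all genes), the interferon element core in 1 (3.44%), TTCNNNGAA, the core bound by STAT factors, in 1, Psmb8 (8.3%), an NF-kB core, GGG followed after any 5 bases by CC, in 6 (50.8%), and TGACG in 4 (20.8%). H2-DMa entered with 2 windows, and TGACG was added after the sequences had been seen. These matches are a description of letters, not of binding.

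In the transgenic array set the median intensity of the 8 arrays lay between 57.69 and 63.95, and in the AAV set of 4 arrays between 25.35 and 25.71, and no level was set against one of another set. Some arrays went against their labels. B4galnt2 was 13.17 to 13.34 on the arrays of transgenic groups and 3.86 to 4.94 on wild-type and mdx arrays, except 7.78 on mdx replicate 2. Dmd, the dystrophin gene, was 9.86 and 9.87 on the transgenic mdx arrays, above the 8.52 and 8.13 of mdx and below the 11.14 and 11.16 of wild type. H2-Ea encodes the alpha chain of I-E, and C57BL/6 and C57BL/10 mice are known to carry a promoter deletion that silences it. Its log2 level was nonetheless 8.07 and 8.29 on the wild-type arrays, 9.27 and 9.28 on the transgenic arrays and 9.92 on mdx replicate 1, against 5.33 on mdx replicate 2, and 6.07 and 5.47 on the transgenic mdx arrays. The AAV set had 3.57 to 4.16, under its array medians of log2 4.66 to 4.68. The 5 probe sets with the widest gap along this division of the 8 arrays, out of 34958, were 3 of the class I heavy chain gene H2-D1 and 2 of H2-Ea, with gaps of 2.91 to 1.90. The sixth, Sypl, had 0.89. The division was drawn at the widest gap in H2-Ea probe set 1422891_at, so the high place of that probe set follows from this choice. It was noticed after the values had been seen, and its cause was not tested. The division separates the mdx replicates, so the main results on mdx muscle are given without each of them below. Those results come from the probe set used for each gene. It also puts all wild-type and transgenic arrays on one side and both transgenic mdx arrays on the other, so in comparisons between these groups it cannot be told apart from the group.

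**Figure D1:**
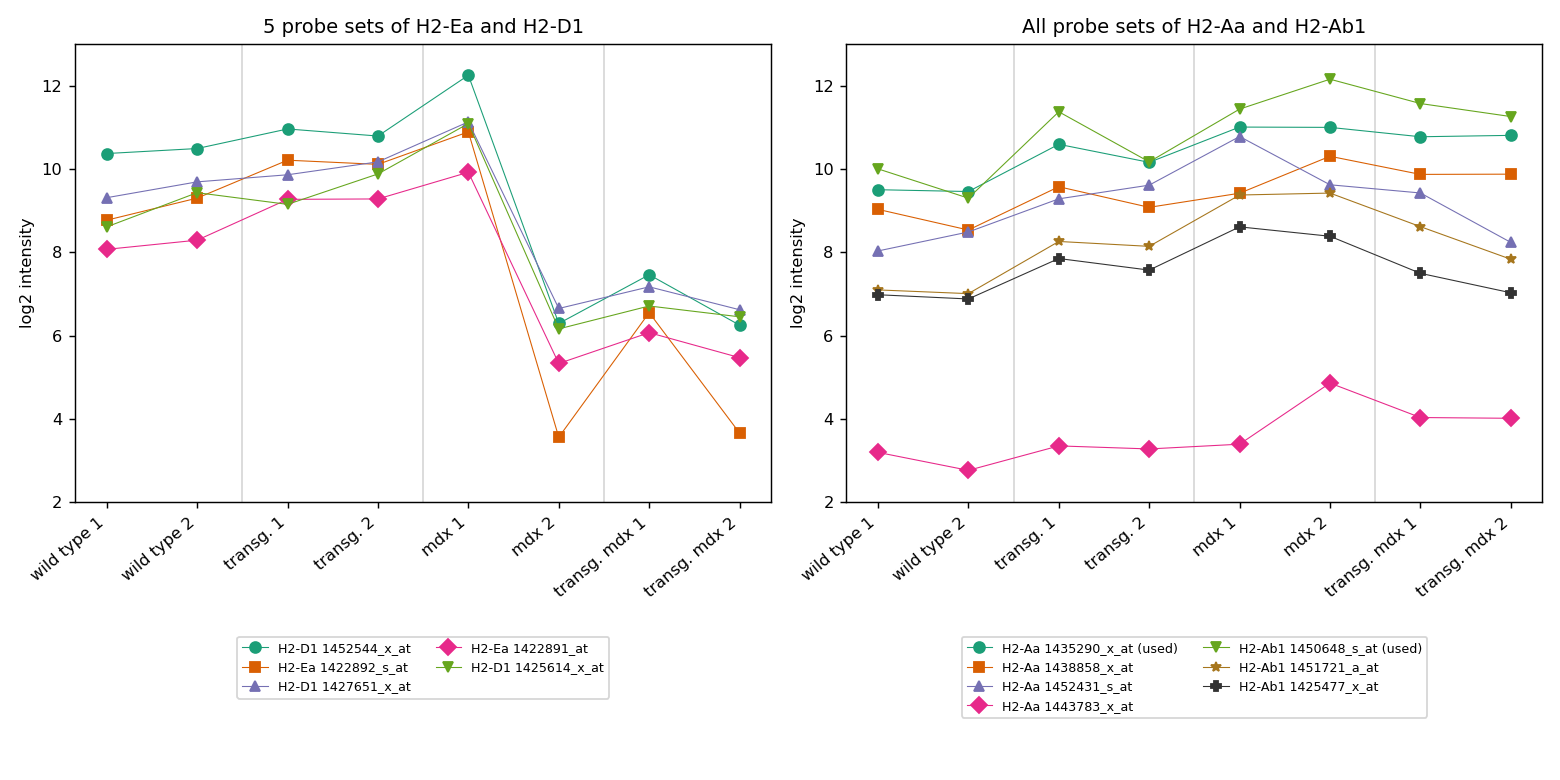
Log2 intensity (vertical axis) on the 8 arrays of the transgenic set (horizontal axis) for the 5 probe sets of H2-Ea and H2-D1 with the widest gap (left) and all probe sets of H2-Aa and H2-Ab1 (right); thin lines only join points of 1 probe set. H2-Ea probe set 1422891_at lies at 8.07 to 9.92 on 5 arrays. It lies at 5.33 to 6.07 on mdx replicate 2 and both transgenic mdx arrays. No H2-Aa or H2-Ab1 probe set has all 5 of those arrays above the rest. In the opposite direction, H2-Aa 1438858_x_at has them at 8.53 to 9.57, below 9.87 to 10.30 on the rest. The dim H2-Aa 1443783_x_at has them at 2.76 to 3.39, below 4.01 to 4.86.

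In mdx muscle, class II genes, Tap1 and the immunoproteasome genes were higher than in wild type. Of the 10 genes, 8 rose at an adjusted p under 0.05 (3.75% of all genes were called higher), by 1.38 to 2.15 on the log2 scale. The median over all 10 was 1.57, against 0.008 over all genes. B2m and Tap2 did not pass. In 9 of 10 genes both mdx arrays lay above both wild-type arrays, as in 23.7% of all genes.

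**Figure D2:**
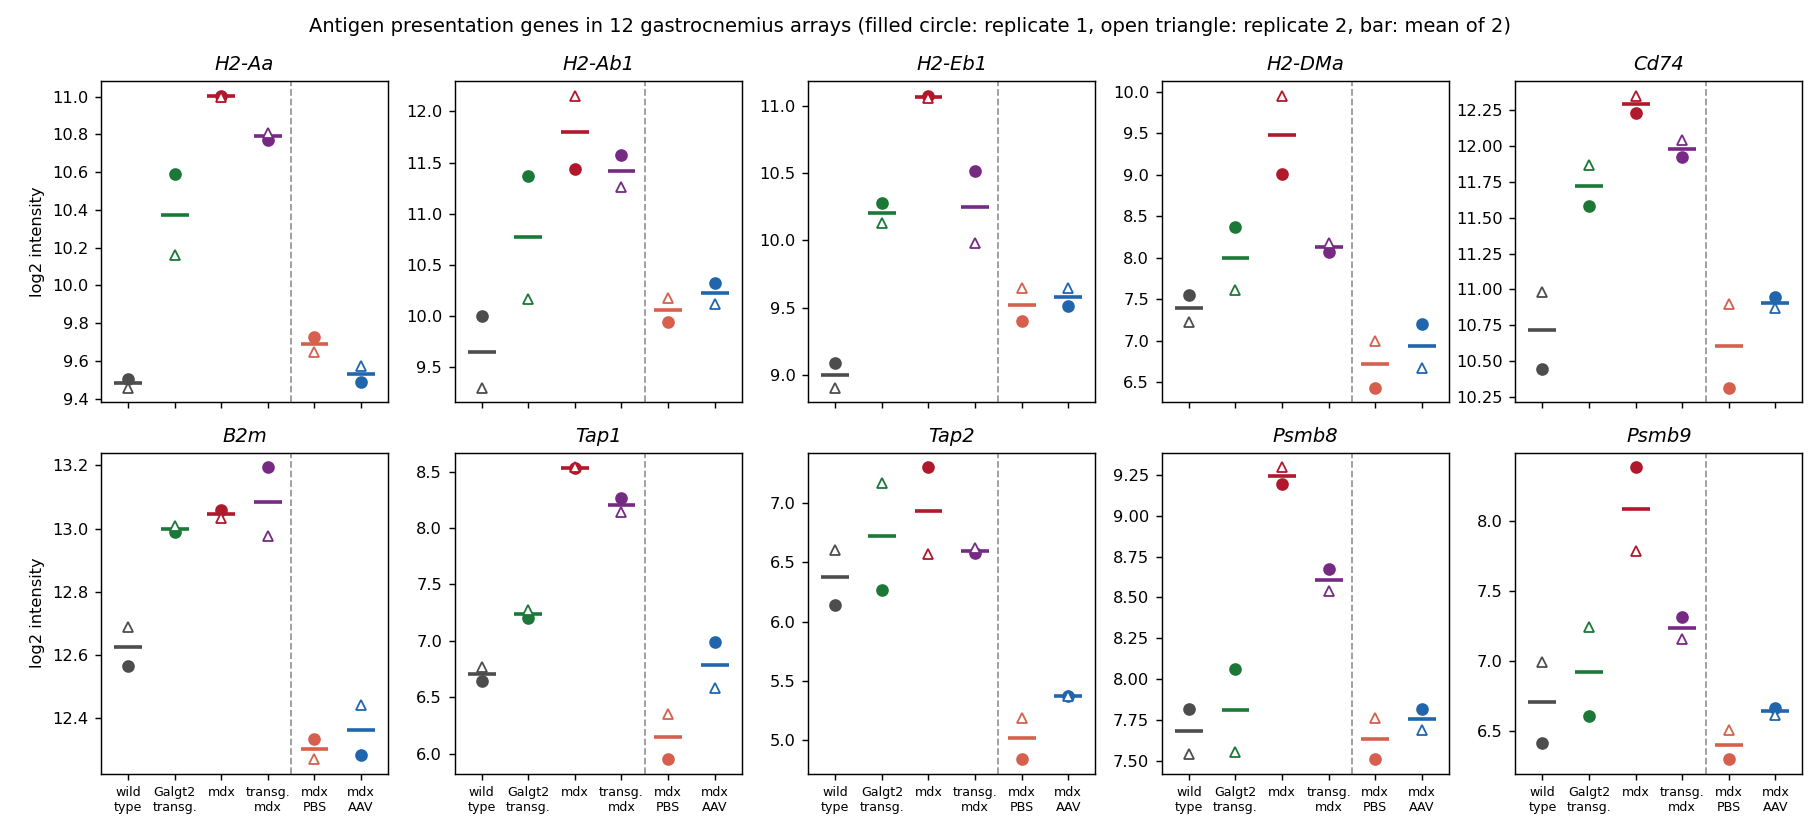
Log2 intensity (vertical axis, a separate scale per gene) of the 10 genes by group (horizontal axis); points are single arrays, bars the mean of 2, and the dashed line separates the array sets. Wild type is lowest of the 4 groups of the transgenic set in all 10 genes, and mdx is highest in 9, the exception being B2m.

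Among the class II chains, H2-Aa was 9.50 and 9.46 in wild type and 11.01 and 11.00 in mdx muscle, a rise of 1.52 ± 0.20 (standard error from limma, adjusted p = 0.00402), or 2.87-fold. On this probe set the replicates of each group lay close together while the groups stood far apart. The dimmer 1452431_s_at read 8.03 and 8.49 in wild type against 10.78 and 9.62 in mdx. Probe set 1438858_x_at read 9.03 and 8.53 against 9.42 and 10.30. In each H2-Aa probe set mdx lay above wild type without overlap, but on the dimmer ones the mdx replicates were further apart. H2-Ab1 was 10.00 and 9.30 in wild type and 11.44 and 12.15 in mdx, a rise of 2.15 ± 0.40 (adjusted p = 0.0140). Its replicates spread more, without overlap. H2-Eb1 went from 9.09 and 8.91 to 11.08 and 11.06, a rise of 2.07 ± 0.22 (adjusted p = 0.00239), or 4.20-fold.

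The loading genes rose with the chains. Cd74 went from 10.44 and 10.98 to 12.23 and 12.35 (1.58 ± 0.25, adjusted p = 0.00846). H2-DMa went from 7.56 and 7.23 to 9.01 and 9.95 (2.09 ± 0.36, adjusted p = 0.0117). Both H2-DMa replicates in mdx were above wild type. On the probe sets used they lay further apart than those of any other class II gene here.

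On the class I side, Tap1 was 6.64 and 6.77 in wild type and 8.53 and 8.54 in mdx, a rise of 1.83 ± 0.21 (adjusted p = 0.00300). The other Tap1 probe sets were under the array median on these arrays, and their groups overlapped. The brightest of them, 1448177_at, read 5.42 and 5.36 in wild type and 5.39 and 5.54 in mdx. Tap2, the partner of Tap1, gave 6.14 and 6.61 against 7.31 and 6.57, so the groups overlapped (0.57 ± 0.33, adjusted p = 0.398). Psmb8 rose from 7.82 and 7.54 to 9.19 and 9.30 (1.56 ± 0.22, adjusted p = 0.00515). A somewhat dimmer probe set of Psmb8, 1444619_x_at (mean level 7.62 against 8.12), read 8.15 and 7.69 in wild type and 7.74 and 8.55 in mdx, with overlap (0.22 ± 0.35, adjusted p = 0.824 over all probe sets). Psmb9 rose from 6.41 and 6.995 to 8.39 and 7.78 (1.38 ± 0.29, adjusted p = 0.0243). B2m, the brightest, was 12.56 and 12.69 against 13.06 and 13.03. The groups did not overlap, but the difference of 0.42 ± 0.18 missed the threshold (adjusted p = 0.219).

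Other genes of both pathways were read from lists. Of 19 other class II pathway genes 7 rose and none fell, with a median of 0.98. They included Lgmn (2.85 ± 0.65), Ctss (2.38 ± 0.25) and Ifi30 (2.18 ± 0.38), a protease pair and a thiol reductase of the endosome, and Marchf1 (1.75 ± 0.24), a ubiquitin ligase that removes class II molecules from the surface. Ciita, the master activator of class II transcription, rose by 1.44 ± 0.36 (adjusted p = 0.0447), and it was named after its value had been seen. Of 14 other class I genes 2 rose, the heavy chains H2-K1 (1.36 ± 0.25) and H2-D1 (1.25 ± 0.26), with a median of 0.71. H2-D1 was read from its brightest probe set, and the 3 of its probe sets that follow H2-Ea put mdx replicate 1 above and mdx replicate 2 below both wild-type arrays. The constitutive proteasome gave no call in 19 genes (limma, 0 also at an unadjusted p under 0.05), with a median of 0.03. The catalytic subunits that Psmb8 and Psmb9 replace, Psmb5 and Psmb6, differed by 0.43 ± 0.24 and 0.17 ± 0.26.

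The interferon lists moved in part. Of 16 genes of the interferon gamma axis 3 rose and 2 fell, with a median of 0.23 and a range from -1.32 to 2.21. Those that rose were Irf8 (2.21 ± 0.42), Cxcl10 (1.76 ± 0.34) and Irf1 (1.44 ± 0.20). Irf1 is a factor known to act on class I and immunoproteasome promoters. Ifng itself, the cytokine gene, was under the array median on all 12 muscle arrays. Of 15 type I interferon response genes 4 rose.

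Macrophage markers were higher in mdx muscle as well, and few markers of other leukocytes passed. Of 16 macrophage markers 10 rose (median 2.26), and their summed intensity was 11890 and 9892 in wild type against 35509 and 33645 in mdx. Of 11 dendritic cell markers 2 rose, Itgax (4.598 ± 0.87) and Cd83 (1.46 ± 0.32), with sums of 5379 and 5858 against 9198 and 8868, and Flt3, Xcr1, Cd209a and Ccr7 were under the array median on all 12 arrays. Of 7 B cell markers 0 were called (limma, 2 at an unadjusted p under 0.05), with sums of 155 and 206 against 649 and 347, and Pax5, Blk and Fcer2a were under the median throughout. Of 9 T and NK cell markers 1, Cd3e, rose (2.47 ± 0.55), with sums of 336 and 413 against 1086 and 656. The part these cells play in the result was not tested, and in bulk tissue more cells of a type and more RNA per cell cannot be told apart.

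The mdx result depended on single arrays in number more than in direction. When any 1 of the 12 arrays was dropped, H2-Aa, H2-Eb1 and Tap1 still passed. The count of 8 became 5 when wild-type replicate 1 was dropped, and 4 for wild-type replicate 2. The calls over all genes went from 990 to 186 and 132 in the same fits. Without mdx replicate 1, the array high in H2-Ea, 7 passed and Psmb9 did not (1.08 ± 0.33, adjusted p = 0.0772). Without mdx replicate 2, the array with raised B4galnt2, 6 passed, and H2-Ab1 (1.79 ± 0.46, adjusted p = 0.0785) and H2-DMa (1.62 ± 0.38, adjusted p = 0.0589) did not. That second comparison involves only arrays high in H2-Ea.

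The Galgt2 transgene without the mdx mutation went with higher class II chains. Against wild type 2 of the 10 genes rose, H2-Aa and H2-Eb1 (2.12% of all genes were called higher), and none fell. All 10 differences were above 0, as were 44.6% of all genes, with a median of 0.57 against -0.05 over all genes. In 7 of 10 the transgenic arrays both lay above wild type, as in 20.5% of all genes.

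H2-Eb1 was 10.28 and 10.13 in transgenic muscle against 9.09 and 8.91 in wild type (1.21 ± 0.22, adjusted p = 0.0145), or 2.31-fold. H2-Aa was 10.59 and 10.16 against 9.50 and 9.46 (0.90 ± 0.20, adjusted p = 0.0353). Cd74 was 11.58 and 11.87 against 10.44 and 10.98, and H2-Ab1 11.37 and 10.17 against 10.00 and 9.30. In both the groups did not overlap, but neither passed, with 1.01 ± 0.25 (adjusted p = 0.0657) and 1.12 ± 0.40 (adjusted p = 0.205). H2-DMa was 8.37 and 7.61 against 7.56 and 7.23, again without overlap (0.60 ± 0.36, adjusted p = 0.523). The peptide supply genes did not pass, with differences of 0.53 for Tap1, 0.35 for Tap2, 0.13 for Psmb8 and 0.22 for Psmb9, of which only Tap1 had groups that did not overlap. B2m differed by 0.37 ± 0.18, with 12.99 and 13.01 in transgenic muscle.

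Of the other class II pathway genes 2 of 19 rose, Ctss (1.33 ± 0.25) and the costimulatory ligand gene Cd80 (0.90 ± 0.20). No other class I gene of 14 (limma, 3 at an unadjusted p under 0.05) and no constitutive proteasome gene of 19 (0 unadjusted) was called. Of 15 type I interferon response genes 6 rose, among them Oasl1 (2.96 ± 0.69) and Ifih1 (2.49 ± 0.43). The interferon gamma axis went both ways: of 16 genes 1 rose and 1 fell, with a range from -1.13 to 2.81. Of 16 macrophage markers 1 rose, Tyrobp (1.16 ± 0.27), and 7 had an unadjusted p under 0.05 in limma (2585 of all 18194 genes). In 13 of the 16 the difference was above 0 (44.6% of all genes), with a median of 0.78. The list summed to 19643 and 12745 in transgenic muscle, above both wild-type sums. The part of these markers in the class II difference was not tested.

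These 2 calls were fragile, though dropping a wild-type or transgenic array also lowered the number of calls over all genes. Neither passed when either wild-type array or transgenic replicate 1 was dropped, and of the 10 genes only H2-Aa passed without transgenic replicate 2. Dropping either AAV-Galgt2 array, which changes only the shared variance, left H2-Eb1 as the 1 call.

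**Figure D3:**
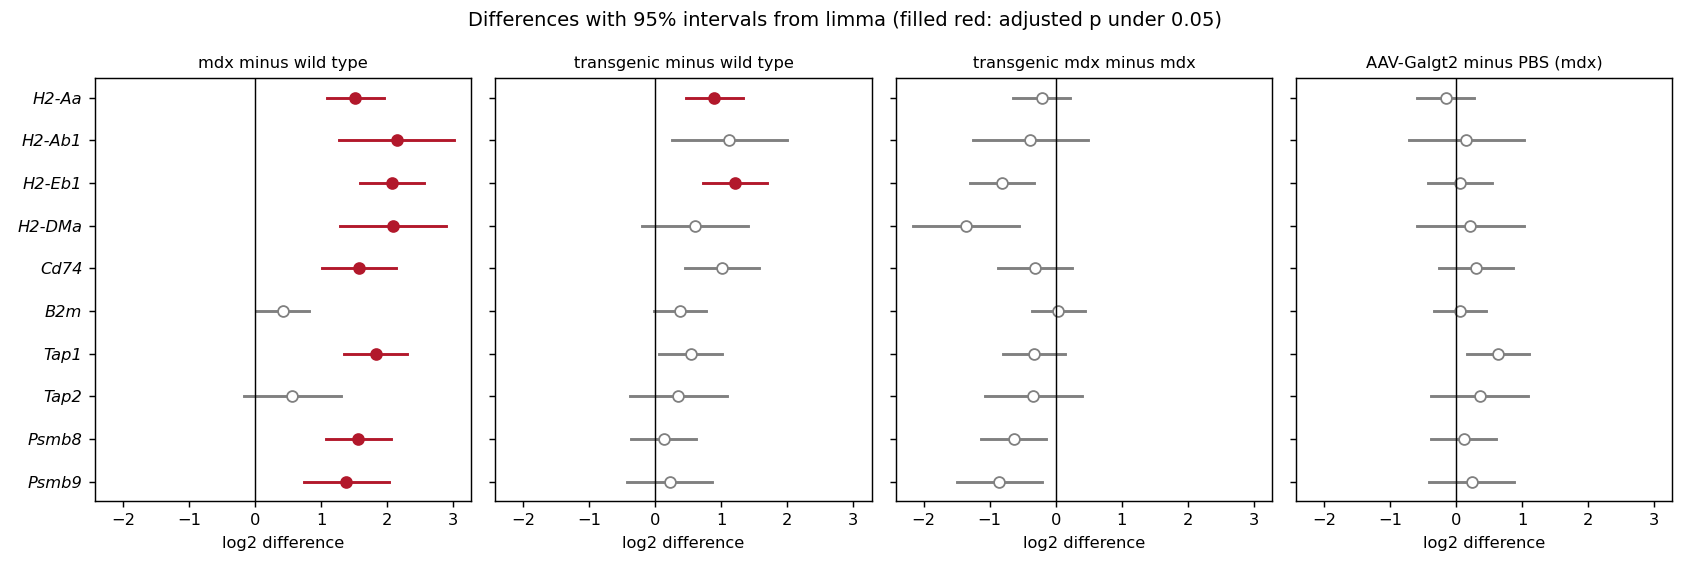
Log2 differences (horizontal axis) of the 10 genes (vertical axis) in 4 comparisons, with 95% intervals from limma; filled red points passed an adjusted p under 0.05. In mdx against wild type 8 genes pass, in transgenic against wild type 2, and in the other comparisons 0.

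Adding the transgene to mdx muscle gave no call among the 10 genes (limma, 4 of 10 at an unadjusted p under 0.05, against 21.1% of all genes; 6.08% of all genes were called after adjustment). The differences from mdx were below 0 in 9 of 10 (49% of all genes were above 0), with B2m at 0.04, and the median was -0.36 against -0.01 over all genes. In 7 of 10 both transgenic mdx arrays lay below both mdx arrays, as in 22.3% of all genes. The lowest were H2-DMa, Psmb9 and H2-Eb1.

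H2-DMa was 8.07 and 8.18 in transgenic mdx muscle against 9.01 and 9.95 in mdx, a difference of -1.36 ± 0.36 (95% interval -2.17 to -0.55, adjusted p = 0.0557). H2-Eb1 was 10.51 and 9.98 against 11.08 and 11.06 (-0.82 ± 0.22, interval -1.30 to -0.33, adjusted p = 0.0550). Psmb9 was 7.31 and 7.16 against 8.39 and 7.78 (-0.85 ± 0.29, adjusted p = 0.118), and Psmb8 was 8.68 and 8.54 against 9.19 and 9.30 (-0.64 ± 0.22, adjusted p = 0.124). In these 4 genes the groups did not overlap.

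The remaining genes lay closer. H2-Aa was 10.77 and 10.81 in transgenic mdx muscle (-0.21 ± 0.20 from mdx), Cd74 11.93 and 12.04 (-0.31 ± 0.25) and Tap1 8.26 and 8.14 (-0.33 ± 0.21), each below mdx without overlap. H2-Ab1 was 11.57 and 11.26 (-0.38 ± 0.40), Tap2 6.58 and 6.62 (-0.34 ± 0.33), and B2m 13.19 and 12.98 (0.04 ± 0.18), each overlapping mdx. A difference that misses the threshold does not show that groups were alike: the interval for H2-Ab1 ran from -1.26 to 0.49.

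The dimmer probe sets of H2-Ab1 gave another answer from the brightest one. In a fit over all probe sets, 1425477_x_at read 7.49 and 7.03 in transgenic mdx muscle against 8.61 and 8.38 in mdx (-1.24 ± 0.23, adjusted p = 0.0174). Probe set 1451721_a_at read 8.61 and 7.83 against 9.37 and 9.42 (-1.17 ± 0.27, adjusted p = 0.0380). Both passed as lower, whereas 1450648_s_at, the one used, gave -0.38 ± 0.40 (adjusted p = 0.676). Both transgenic mdx arrays lie on the low side of the H2-Ea division, and the mdx arrays lie on either side. No fit of the dimmer probe sets without each mdx replicate is given, and the part of the division was not tested. For H2-Aa, 1452431_s_at gave -1.37 ± 0.42 (adjusted p = 0.0966) and 1438858_x_at 0.01 ± 0.31, so its probe sets differed as well. In the transgenic set 1438858_x_at was lower on every array high in H2-Ea than on the arrays low in it.

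Both near-threshold genes moved with the arrays and settings used. H2-DMa passed without mdx replicate 1, when only arrays low in H2-Ea were compared (-1.83 ± 0.38, adjusted p = 0.0222), and gave -0.89 ± 0.38 without mdx replicate 2 (adjusted p = 0.247). It also passed without either transgenic array, at -1.36 ± 0.34 (adjusted p = 0.0488), through the shared variance alone. H2-Eb1 was -0.81 and -0.83 without mdx replicate 1 and 2, and neither passed (adjusted p = 0.112 and 0.138). Without transgenic mdx replicate 1 it passed at -1.08 ± 0.23 (adjusted p = 0.0389), while without replicate 2 it gave -0.55 ± 0.23 (adjusted p = 0.298). Transgenic mdx replicate 2 had the largest 3′ over 5′ difference of the Gapdh control probe sets, log2 1.23 against 0.18 to 0.48 on the other 7 arrays of the set; the part of RNA quality in these values was not tested.

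Other class II pathway genes split: 1 of 19 rose, Cd80 (1.19 ± 0.20), and 2 fell, Ifi30 (-1.55 ± 0.38) and Rfxank (-1.05 ± 0.26), a subunit of the factor that binds class II promoters. No gene of 14 in the other class I list (limma, 5 at an unadjusted p under 0.05) or of 19 in the constitutive proteasome (2 unadjusted) was called. Interferon response genes were called higher in part. Of 15 type I genes 7 rose, among them Ifih1 (3.13 ± 0.43) and Ifit1 (2.88 ± 0.44), with a median of 1.48, and of 16 interferon gamma axis genes 5 rose, among them Iigp1 (2.54 ± 0.43) and Cxcl10 (2.19 ± 0.34). Irf1, which is in that list, gave -0.76 ± 0.20 (adjusted p = 0.0513).

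Macrophage markers were lower in transgenic mdx than in mdx muscle. Of 16, 4 fell: Tyrobp (-1.66 ± 0.27), C1qa (-1.496 ± 0.32), Adgre1 (-1.13 ± 0.28) and Lyz2 (-1.04 ± 0.26), and the list summed to 20527 and 19272 against 35509 and 33645. Of 11 dendritic cell markers 1 fell, Clec10a (-1.80 ± 0.37), with sums of 6871 and 6036 against 9198 and 8868. B cell markers (sums 178 and 789 against 649 and 347) and T and NK cell markers (637 and 1258 against 1086 and 656) gave no call (limma, 0 and 0 at an unadjusted p under 0.05). Of 10 endothelial markers 4 fell. Their part in the differences of the 10 genes was not tested.

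**Figure D4:**
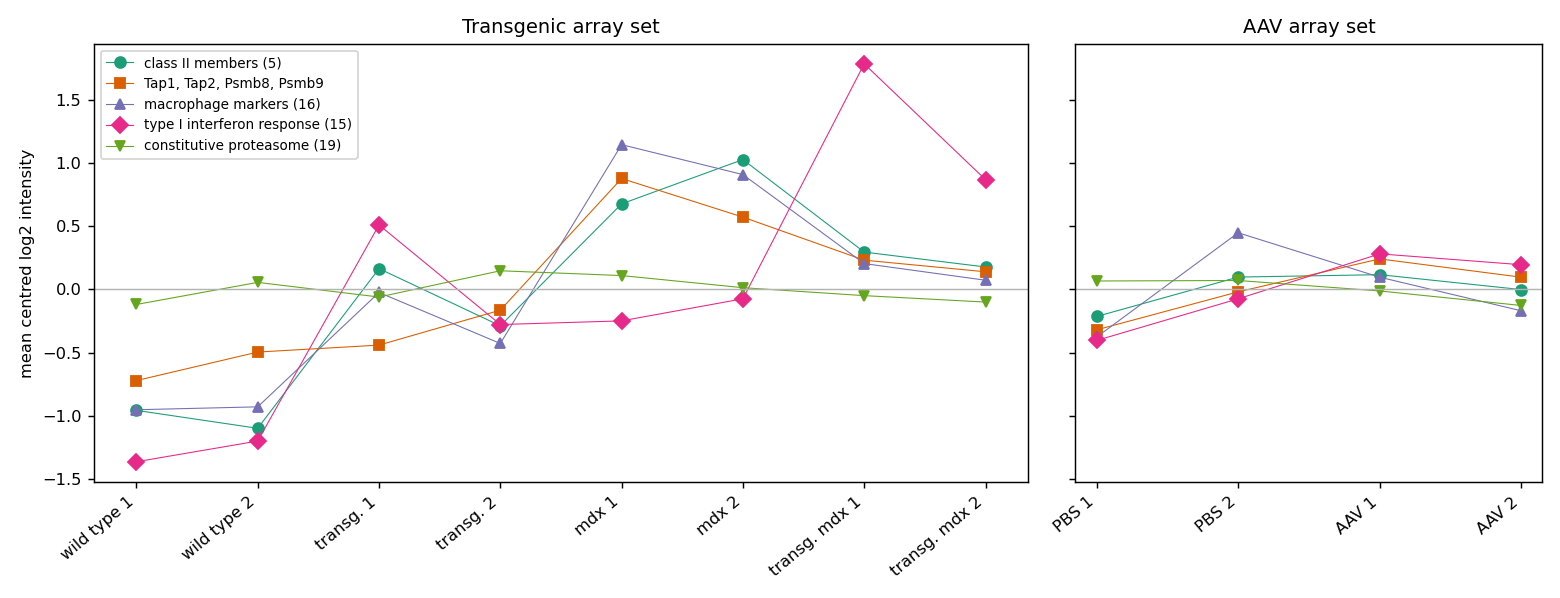
Mean log2 intensity of a gene list after centring each gene within its array set (vertical axis) on each array (horizontal axis); thin lines only join points of 1 list. The 5 class II genes reach 0.68 and 1.03 on the mdx arrays and 0.30 and 0.18 on the transgenic mdx arrays, near the macrophage markers (0.20 and 0.07), while the type I interferon list is highest on the transgenic mdx arrays (1.79 and 0.87).

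On the probe set used for each gene, mean levels in transgenic mdx muscle were above wild type in all 10 genes and above transgenic muscle in 9. Compared with wild type, 6 of 10 genes were higher (4.91% of all genes were called higher): H2-Ab1 (1.76 ± 0.40), Tap1 (1.496 ± 0.21), H2-Aa (1.31 ± 0.20), Cd74 (1.27 ± 0.25), H2-Eb1 (1.25 ± 0.22) and Psmb8 (0.93 ± 0.22). Psmb8 passed in 1 of 7 other settings (0.56 to 0.93 in those settings), and Tap1 in 6 of 7, missing with the mean of all its probe sets (0.35 ± 0.15, adjusted p = 0.213). H2-Ab1 passed in 5 of 7, missing in the fit within the array set and with the replicate block. Its dimmer probe set 1425477_x_at read 7.49 and 7.03 against 6.98 and 6.88 in wild type. H2-Aa 1452431_s_at read 9.42 and 8.24 against 8.03 and 8.49, with overlap. All other probe sets of both genes lay above wild type without overlap. H2-DMa (0.73 ± 0.36, adjusted p = 0.288) and Psmb9 (0.53 ± 0.29, adjusted p = 0.339), called in mdx against wild type, did not pass here, nor did B2m (0.46 ± 0.18) or Tap2 (0.23 ± 0.33). The count was 3 without wild-type replicate 2 and 3 without transgenic mdx replicate 2. Both comparisons share the wild-type arrays. Compared with transgenic muscle that has dystrophin, 0 of 10 passed (limma, 2 at an unadjusted p under 0.05, as in 3.89% of all genes; 0.055% of all genes were called), with the largest differences in Tap1 (0.96 ± 0.21, adjusted p = 0.508) and Psmb8 (0.80 ± 0.22).

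The 4 groups of the transgenic set were ordered wild type, transgenic, transgenic mdx, mdx from low to high in 8 of 10 genes, an order found in 8.04% of all genes. In B2m transgenic mdx was above mdx, and in Tap2 transgenic was above transgenic mdx. Between neighbours in the order, the difference of wild type and transgenic passed an adjusted p under 0.05 in H2-Aa and H2-Eb1, and the other neighbouring pairs gave no call in any of the 10.

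The transgene difference was tested between mdx and dystrophin-containing muscle as an interaction. All 10 values were below 0 (54.2% of all genes were above 0), and 8 had an unadjusted p under 0.05, as in 11.9% of all genes, but none passed in limma after adjustment (0.044% of all genes were called). H2-Eb1 had the smallest p, with -2.03 ± 0.31 (adjusted p = 0.0601): its transgene difference was 1.21 without and -0.82 with the mdx mutation. H2-DMa gave -1.96 ± 0.52 (adjusted p = 0.178), H2-Ab1 -1.503 ± 0.56 (adjusted p = 0.308) and Tap1 -0.86 ± 0.30 (adjusted p = 0.281). H2-Eb1 passed without mdx replicate 1, transgenic mdx replicate 1 or either PBS array, the last through the shared variance, so leaving out 1 of those 4 arrays makes the count 1.

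Postnatal delivery of Galgt2 by AAV into mdx muscle gave no call among the 10 genes (limma, 1 at an unadjusted p under 0.05, as in 8.28% of all genes), and 0% of all 18194 genes passed. Without PBS replicate 2, 99 genes were called higher and 59 lower, and without PBS replicate 1, 3 were called lower, none of them among the 10. B4galnt2 was 10.54 and 10.56 in the AAV-Galgt2 muscles and 5.27 and 4.26 in the PBS muscles. The 10 differences ran from -0.16 in H2-Aa to 0.64 in Tap1, with a median of 0.19 against 0.03 over all genes.

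Tap1 was 6.99 and 6.58 in AAV-Galgt2 and 5.95 and 6.35 in PBS muscle, a difference of 0.64 ± 0.21 without overlap (adjusted p = 0.465). Tap2 was 5.37 and 5.37 against 4.84 and 5.19 (0.36 ± 0.33), and Psmb9 6.66 and 6.62 against 6.30 and 6.50 (0.24 ± 0.29), again without overlap. H2-Aa was the only gene with both AAV-Galgt2 arrays below both PBS arrays, at 9.49 and 9.57 against 9.73 and 9.65 (-0.16 ± 0.20). Groups that did not overlap thus occurred in 3 genes as higher and 1 as lower, against 25.3% and 18.6% of all genes.

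For the others the groups overlapped. H2-Ab1 was 10.33 and 10.12 against 9.95 and 10.18, H2-Eb1 9.51 and 9.65 against 9.40 and 9.65, Cd74 10.94 and 10.87 against 10.31 and 10.90, and H2-DMa 7.20 and 6.68 against 6.44 and 7.002. The intervals bound what could have been missed: for H2-Eb1 from -0.43 to 0.54, for H2-DMa from -0.59 to 1.03 and for H2-Ab1 from -0.72 to 1.03. Psmb8 was 7.82 and 7.69 against 7.51 and 7.76. PBS replicate 1 was the lower PBS array in all 10 genes but H2-Aa and B2m, the last of which was 12.33 and 12.27 in PBS and 12.28 and 12.44 in AAV-Galgt2 muscle. It also had the lowest macrophage sum of the set, 14239 against 20140 on the other PBS array and 17009 and 14532 on the AAV-Galgt2 arrays; the part of these cells was not tested.

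The transgene difference in mdx muscle was set against the AAV difference, each taken within its own array set. None of the 10 passed (limma, 5 at an unadjusted p under 0.05, as in 20.5% of all genes; 2.09% were called), and all 10 values were below 0, where 47.9% of all genes were above. H2-DMa gave -1.58 ± 0.52 (adjusted p = 0.124), Psmb9 -1.09 ± 0.41 (adjusted p = 0.173), Tap1 -0.97 ± 0.30 (adjusted p = 0.110) and H2-Eb1 -0.88 ± 0.31 (adjusted p = 0.149). Without mdx replicate 1 H2-DMa passed at -2.05 (adjusted p = 0.0428). Of the 15 type I interferon genes 4 were called higher in this difference, among them Ifit1 (2.89 ± 0.62).

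Within the 8 arrays of the transgenic set the genes varied together to different degrees. H2-Aa and H2-Ab1, the 2 chains of one molecule, had Pearson r = 0.942, Tap1 and Psmb8 0.928, and H2-Aa and Tap1 0.927, whereas Tap2 had 0.059 with H2-Ab1 and 0.443 with its partner Tap1. Its highest value was 0.784, with Psmb9. These values describe 8 arrays that share groups and carry no test.

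The genes most like the mean of the 5 class II genes over the same 8 arrays were Vim (r = 0.996), which encodes the intermediate filament vimentin, Siglecf (0.991), which encodes a sialic acid receptor of eosinophils and some macrophages, Galns (0.991) and Gla (0.990), which encode lysosomal enzymes, and Marchf1 (0.990). Vim ran from 12.81 and 12.79 in wild type to 13.26 and 13.35 in mdx. The genes most like the mean of Tap1, Tap2, Psmb8 and Psmb9 were C1qc (0.984), a complement chain made by macrophages, Cyth4 (0.983), the chemokine gene Ccl3 (0.980), H2-D1 (0.979) and Irf1 (0.978). C1qc was 8.03 and 8.30 in wild type, 8.88 and 9.01 with the transgene, 10.73 and 10.12 in mdx muscle and 9.50 and 9.64 in transgenic mdx muscle.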

How the data were processed

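The deposited intensity values, 1 per probe set, were made by the authors with GCOS and RMA per the submitters' processing notes, which give no versions. The values are linear and were analysed as log2. Labels were made from 25 ng of muscle RNA. Arrays have no read depth, and 2 arrays a group limit the precision. Of 45101 probe sets 34958 carry 1 gene symbol, 932 several and 9211 none, and only the first were used. The brightest probe set over the 12 muscle arrays stood for each of 18194 genes. A single limma fit (version 3.58.1, in R 4.3.3) estimated the means of the 6 muscle groups, followed by eBayes. P-values are two-sided, adjusted by Benjamini-Hochberg over all genes per comparison, with 0.05 as threshold; errors are standard errors. The method was tested on simulated data. The 10 genes, the lists and the named genes were chosen with earlier results of these data known. All 10 genes are given. From each list at most 4 called genes, those of largest change, could be named (where none passed, at most 2, by p). Ciita, Psmb5, Psmb6, Ifng and, where not called, Irf1 lie outside this rule and were chosen after their values were seen. Likeness is the highest Pearson r over 8 arrays. Of the lists' genes 11 have no probe set with their symbol alone. Alternatives were a shift to 1 median, quantile normalization within sets, the mean of all probe sets, a filter on dim genes, a variance trend, a fit within the set, a replicate block, other probe sets and each array left out.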

Additional observations from a re-analysis of the deposited data

How the results depend on the processing

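Over the settings tried, 1442 of 1509 single-gene values kept their direction and side of the threshold, 48 lost the call, 19 gained one and 0 reversed. Most of the 1509 belonged to results not called in the main fit, which could not lose a call. Of 88 values from other probe sets 68 kept both, 16 lost the call, 2 gained one and 2 reversed. Most of the 88 likewise could not lose a call, since the main fit had not called their results. Among values for called results, more lost the call than kept it. The 2 that reversed were Tap1 in transgenic mdx against wild type, -0.071 with 1420274_at and -0.037 with 1449803_x_at. Their mean levels of 2.67 and 3.11 are dim beside 7.27 for the one used. The number of the 10 genes called in mdx against wild type was 8, and 7 or 8 under the other settings and 4 to 8 with an array left out. In transgenic against wild type it was 2, and 1 with arrays shifted to the same median, 1 in the fit within the array set, 3 with a variance trend, and 0 to 2 with an array left out. In transgenic mdx against mdx it was 0, and 1 with the median shift, 2 with quantile normalization, 1 with the mean of all probe sets, 2 among genes above the array median on 2 arrays, and 0 to 1 with an array left out; those called were H2-Eb1 or H2-DMa, both lower. In transgenic mdx against wild type it was 6, and 4 to 6 under the other settings and 3 to 6 with an array left out. In the interaction it was 0, and 1 with a variance trend and 0 to 1 with an array left out, and in the transgene minus AAV difference 0 to 1. In transgenic mdx against transgenic and in AAV-Galgt2 against PBS it was 0 throughout. The cause was not tested. Where 1 array was left in a group, it was assumed to vary like the others.

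Replicate numbers were not taken as pairs in the main fit. Deviations of same-numbered arrays correlated at r from -0.439 (wild type and mdx) to 0.542 (wild type and transgenic), which does not settle whether samples were paired. With the replicate block the counts were 7 in mdx against wild type, 1 in transgenic against wild type, 4 in transgenic mdx against wild type and 0 in the other comparisons. With the median shift the split over all genes in mdx against wild type was 540 higher and 1080 lower, against 682 and 308, and in transgenic against wild type 314 and 327, against 386 and 187. In transgenic mdx against wild type it was 631 and 1048, against 894 and 430, and in the transgene minus AAV difference 482 and 169, against 217 and 163. With quantile normalization mdx against wild type gave 571 and 429, and transgenic mdx against wild type 726 and 588. Without mdx replicate 1 mdx against wild type gave 544 and 794. Tap2 gave no value in the filter on dim genes for the AAV set, and the transgene minus AAV difference has no fit within 1 set.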

Other observations

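In C2C12 myoblasts and myotubes, a mouse muscle cell line without leukocytes, each with and without stable Galgt2, 1 array per condition gives levels with no test. The class II genes H2-Aa (3.49 to 3.62), H2-Ab1 (3.41 to 3.62) and H2-Eb1 (4.80 to 5.26) and the immunoproteasome genes Psmb8 (5.35 to 5.56) and Psmb9 (4.07 to 4.45) were under the array median on all 4 arrays. B2m (12.80 to 13.22) and Tap2 (6.22 to 7.07) were above it on all 4. Cd74 and Tap1 were above it only in C2C12-Galgt2 myoblasts, at 5.91 and 6.21, and H2-DMa on 3 of 4 arrays.

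Tap1 and Tap2, which form one transporter, stood on opposite sides of the threshold in mdx against wild type, at 1.83 and 0.57, and the difference between them was not tested.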
